A study of Homo sapiens with 4 samples.

Results

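Integrins and the proteins that tie them to the cytoskeleton were followed in human cells labelled SCC-15, an established line given as oral squamous cell carcinoma (OSCC), after overexpression of REEP6. The genes were taken by name: every integrin alpha and beta subunit, the focal adhesion adaptors and kinases TLN1, TLN2, FERMT1, FERMT2, FERMT3, ILK, PTK2, VCL, PXN, PARVA, PARVB, LIMS1 and ZYX, the plakins DST and PLEC, and CD44. This gave 42 genes of 51103 in the tables, namely 26 integrin subunits (18 alpha and 8 beta) and 16 others. Of these, 30 reached 1 FPKM (counts scaled to gene length and library total) in at least 2 libraries and were tested, 15 of them integrin subunits and 15 of them others.

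The REEP6 group was SCC-15 with lentivirus-delivered REEP6, genotype REEP6-overexpression in the labels (2 libraries), and the reference was SCC-15 labelled NC, the negative control (2 libraries). Cells were lysed in Trizol 48 h after the medium step named in the extraction protocol, and polyadenylated RNA was sequenced. The labels do not say whether the replicates were separate cultures or whether the line was a clone, so p-values cover library-to-library spread alone, which may be technical. What the control virus carried is not given in the sources used here.

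The libraries held 12856256 to 15208629 counts, of which the 42 genes took 0.567% to 0.592% with REEP6 and 0.637% to 0.690% in NC. REEP6 itself had 20.0 and 20.9 FPKM in the REEP6 libraries, against 11.1 and 12.6 FPKM in the NC libraries, a 1.76-fold rise (edgeR adjusted p 0.00119). The counts do not separate introduced from endogenous REEP6. Of 13 squamous epithelial markers only PERP and EPCAM passed the filter, neither was called, and the 13 summed to 179 and 208 FPKM with REEP6 and 171 and 210 FPKM in NC, nearly all of it PERP, while KRT6A and DSG3 were at 0 in all 4 libraries and KRT5, KRT14, KRT17, TP63 and CDH1 had between 0 and 14 counts in any library. The cells are therefore called here by their label, with the keratin and cadherin markers of squamous epithelium at or near 0. Markers of endothelium (0 of 7 tested), leukocytes (1 of 10), platelets (1 of 5) and melanocytes (0 of 4) summed to less than 5 FPKM per list in every library, with 0 called.

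Integrins are pairs of an alpha and a beta chain that span the plasma membrane. The beta1 chain pairs with the largest number of alpha chains, among them those for collagen and laminin, and alphaV chains pair with beta chains to bind matrix proteins that carry the RGD tripeptide. Inside the cell, talin and kindlin bind the beta tail and switch the receptor on, and vinculin, paxillin, parvins and focal adhesion kinase build the link to actin and to signalling. In stratified epithelium the alpha6beta4 integrin is instead joined to keratin filaments by plectin and dystonin in hemidesmosomes.

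With REEP6, the beta chain ITGB1, the alphaV chain ITGAV and the collagen-binding alpha subunits ITGA1, ITGA2 and ITGA11 fell, by 1.75-fold to 2.71-fold. The fourth collagen-binding subunit, ITGA10, fell 3.19-fold but passed the expression filter only through the NC libraries (log2 fold change -1.67, or -0.98 on the log2(FPKM + 1) scale). The laminin-binding alpha subunits ITGA3, ITGA6 and ITGA7 did not pass the test in either direction. The kindlin FERMT1 and the parvin PARVB rose 1.97-fold and 1.62-fold, and the hemidesmosomal beta subunit ITGB4 rose 1.35-fold. Of the 30 tested genes, 13 (43.3%) passed an adjusted p of 0.05 with edgeR's quasi-likelihood test, 8 lower, ITGA10 among them, and 5 higher. In the same fit 25.0% of 13077 genes passed, 14.2% lower (1853 genes) and 10.9% higher (1422 genes, 940 without REEP6 replicate 1). Without REEP6 replicate 1 the 5 higher genes became 3. The median log2 fold change was -0.04 over the 30 genes and -0.01 over all genes.

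The beta subunits, which are shared between receptors, moved in different directions. ITGB1 (ENSG00000150093, chromosome 10, 32900319 to 33005792, GRCh38), the common partner of the collagen, laminin and fibronectin alpha chains, had 63.8 and 64.4 FPKM in the REEP6 libraries, against 120 and 125 FPKM in the NC libraries. Both REEP6 libraries lay far below both NC libraries, and the replicates of each group lay close together. ITGB1 fell 1.88-fold, with a log2 fold change of -0.91 ± 0.0815 (SE) and an edgeR adjusted p of 0.000227 (n = 2 per group). ITGB1 was the most abundant integrin transcript per length in all 4 libraries.

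ITGB4 (chromosome 17, 75721328 to 75757818), the beta chain of hemidesmosomes, had 18.9 and 17.6 FPKM with REEP6 and 14.5 and 13.1 FPKM in NC. The groups did not overlap, and ITGB4 rose with a log2 fold change of 0.44 ± 0.0935 (SE, edgeR adjusted p 0.00943). Its call ended when FPKM sums were made equal (0.30, edgeR adjusted p 0.0537). ITGB5, an alphaV partner in vitronectin receptors, had 35.6 and 32.2 FPKM with REEP6 and 29.7 and 27.2 FPKM in NC, and lay just beyond the threshold (log2 fold change 0.28, 95% interval 0.08 to 0.49, edgeR adjusted p 0.0502). It passed in 6 of 15 alternative settings, DESeq2 among them (DESeq2 adjusted p 0.0441). ITGB8 (chromosome 7, 20330702 to 20415754), an alphaV partner known for releasing active TGF-beta from its latent complex, had 1.83 and 2.20 FPKM with REEP6 and 2.71 and 3.47 FPKM in NC. ITGB8 fell 1.51-fold, a call kept in 9 of 14 alternative settings. Without NC replicate 2 its log2 fold change of -0.59 was -0.37. It did not pass with a correction for GC content (-0.38, edgeR adjusted p 0.08) or for gene length (-0.47, edgeR adjusted p 0.0509). Nor did it pass with limma on log2(FPKM + 1) or log2(FPKM + 0.1) (limma adjusted p 0.0993 and 0.0985).

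**Figure D1:**
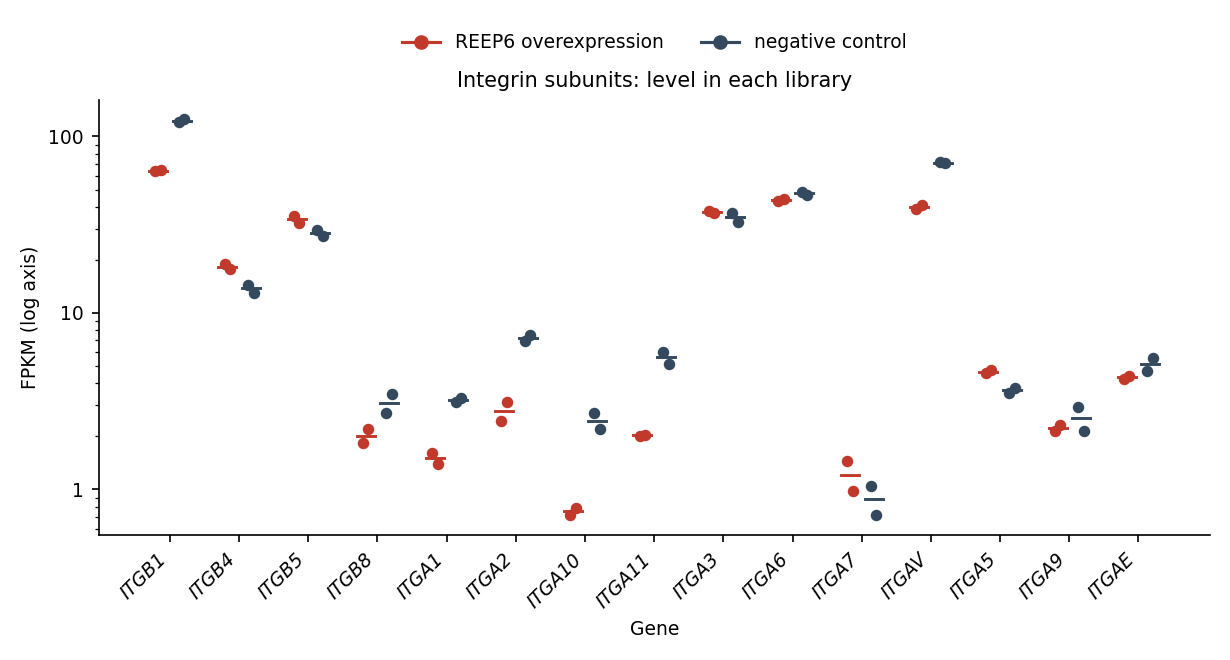
FPKM of the 15 tested integrin subunits on a log axis, with 1 point per library, a line at the mean of each group of 2, and REEP6 overexpression left of the negative control for each gene. ITGB1, ITGAV and the 4 collagen-binding subunits ITGA1, ITGA2, ITGA10 and ITGA11 lay lower in both REEP6 libraries than in both NC libraries, while ITGA3 overlapped between the groups.

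The collagen-binding alpha subunits carry an inserted I domain that grips triple-helical collagen, and each pairs with the beta1 chain. All 4 were expressed at low to moderate levels, and 3 of them passed the filter in both groups. ITGA2, the alpha chain of a major collagen receptor of epithelial cells and platelets, had 2.45 and 3.15 FPKM in the REEP6 libraries, against 6.90 and 7.46 FPKM in the NC libraries. Its fall was 2.52-fold, a log2 fold change of -1.34 ± 0.129 (SE, edgeR adjusted p 0.000341). ITGA11, known from fibroblasts as a receptor for fibrillar collagen, had 2.02 and 2.03 FPKM with REEP6 and 6.04 and 5.16 FPKM in NC. That was a 2.71-fold fall (log2 fold change -1.44 ± 0.113 SE, edgeR adjusted p 0.000126), and the pair of REEP6 libraries was nearly identical.

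ITGA10, a collagen receptor best known from cartilage, had 0.717 and 0.785 FPKM with REEP6 and 2.70 and 2.21 FPKM in NC. With both REEP6 libraries below 1 FPKM, it could be tested only because both NC libraries lay above 1 FPKM. Its log2 fold change was -1.67 ± 0.195 (SE, edgeR adjusted p 0.000742). The log2(FPKM + 1) scale, on which it was -0.98, compresses low genes. ITGA1, which favours basement membrane collagen, had 1.61 and 1.39 FPKM with REEP6 and 3.13 and 3.31 FPKM in NC. ITGA1 fell 2.11-fold (log2 fold change -1.07 ± 0.11 SE, edgeR adjusted p 0.000468). Annotated exons of PELO and a neighbouring RNA gene on the same strand cover 5.63% of its exon length. Ranked by log2 fold change from the lowest of 13077 genes, ITGA10 stood at 96, ITGA11 at 151, ITGA2 at 182 and ITGA1 at 310, with ITGB1 at 483.

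Of 10 fibroblast markers 4 were tested, and all 4 (COL3A1, LUM, PDGFRB and POSTN) were called lower, beside 14.2% of all genes tested. POSTN passed the filter only through the NC libraries. COL1A1, below the filter, also lay lower in both REEP6 libraries, at 0.292 and 0.245 FPKM with REEP6 and 0.396 and 0.355 FPKM in NC. PDGFRA lay higher in both REEP6 libraries, at 0.986 and 1.06 FPKM with REEP6 and 0.663 and 0.709 FPKM in NC, and was not tested because it reached 1 FPKM in 1 library only. The 10 markers summed to 18.1 to 18.3 FPKM in the REEP6 libraries and 34.5 to 36.6 FPKM in the NC libraries, most of it COL3A1 and LUM. The defining markers FAP, THY1 and DCN were at 0 to 2 counts in every library, and COL1A2 at 0 to 6. In bulk RNA, fewer cells of a type and less RNA per cell cannot be told apart, and the part of these markers in the fall of the collagen receptors was not tested.

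The 4 collagen receptor genes lie on chromosome 5 (ITGA1 and ITGA2, neighbours on the plus strand), chromosome 1 (ITGA10) and chromosome 15 (ITGA11). ITGA1, ITGA2 and ITGA11 fell, while ITGA10 was tested only through its NC level. After these values were seen, the 250 bases upstream of the RefSeq start (GRCh38.p14) were searched on both strands. The motifs were an AP-1 site (TGANTCA), a GC box (GGGCGG), a TEAD site (GGAATG) and a TATA box (TATAAA). The windows are shown for ITGA1 (chr5:52787666-52787915, plus strand), ITGA2 (chr5:52989102-52989351, plus strand) and ITGA11 (chr15:68432164-68432413, minus strand), 5′ to 3′ in the direction of the gene, with motif matches in capitals.
ITGA1: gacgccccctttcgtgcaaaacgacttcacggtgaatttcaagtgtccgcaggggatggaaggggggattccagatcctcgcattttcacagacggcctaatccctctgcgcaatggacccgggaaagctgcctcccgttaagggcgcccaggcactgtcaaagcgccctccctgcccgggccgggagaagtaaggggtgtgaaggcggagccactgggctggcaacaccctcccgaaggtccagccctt
ITGA2: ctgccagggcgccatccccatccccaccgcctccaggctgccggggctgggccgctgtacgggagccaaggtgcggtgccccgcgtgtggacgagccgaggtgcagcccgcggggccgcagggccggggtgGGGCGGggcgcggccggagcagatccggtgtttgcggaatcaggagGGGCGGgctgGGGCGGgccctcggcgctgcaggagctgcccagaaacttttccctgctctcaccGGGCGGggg
ITGA11: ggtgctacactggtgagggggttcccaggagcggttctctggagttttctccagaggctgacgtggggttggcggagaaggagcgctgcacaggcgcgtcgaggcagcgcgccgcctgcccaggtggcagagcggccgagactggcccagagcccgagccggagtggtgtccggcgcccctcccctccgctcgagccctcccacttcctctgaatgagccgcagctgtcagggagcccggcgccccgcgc
ITGA2 held 4 GC boxes, ITGA1 and ITGA11 held none of the 4 motifs, and ITGA10 held 1 TEAD match and no other. The ITGA10 window (chr1:145910051-145910300, minus strand) crosses the GENCODE start of the gene at 145910189, so part of it lies inside the annotated gene. The ITGA1 and ITGA2 windows cross their GENCODE starts, at 52787896 and 52989326, near their 3′ ends. No motif was shared by all 4 genes, or by ITGA1, ITGA2 and ITGA11. Among 35114 annotated upstream windows of this length, 42.6% held a GC box, 11.9% a TEAD match, 10.7% a TATA box and 6.57% an AP-1 match. A match is a run of letters, and its absence in this window says nothing of the factor. GC content of the window was 62.0% for ITGA1, 76.4% for ITGA2, 48.4% for ITGA10 and 71.2% for ITGA11, beside a median of 58.0% over all windows.

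None of the 3 laminin-binding alpha subunits passed the test. ITGA6, the partner of ITGB4 in hemidesmosomes and of ITGB1 elsewhere, had 43.3 and 44.1 FPKM with REEP6 and 48.5 and 46.8 FPKM in NC. Both REEP6 libraries lay below both NC libraries, by little, and its log2 fold change was -0.10 with a 95% interval of -0.28 to 0.08. ITGA3, the alpha chain of the epithelial laminin-332 receptor, had 37.9 and 36.8 FPKM with REEP6 and 37.1 and 33.0 FPKM in NC. Its interval ran from -0.08 to 0.32, so a fall of the size seen for the collagen receptors lies outside both intervals. ITGA7, the laminin receptor chain of muscle, was close to the filter at 1.45 and 0.979 FPKM with REEP6 and 1.05 and 0.712 FPKM in NC, and its interval from -0.11 to 1.11 leaves its direction undetermined.

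The alpha subunits for RGD ligands went opposite ways. ITGAV (chromosome 2, 186590065 to 186680901), the common alpha chain of vitronectin and TGF-beta-activating receptors, had 38.9 and 40.7 FPKM in the REEP6 libraries, against 71.6 and 70.8 FPKM in the NC libraries. ITGAV fell 1.75-fold, with a log2 fold change of -0.81 ± 0.0809 (SE, edgeR adjusted p 0.000387), or -0.53 with a correction for GC content (edgeR adjusted p 0.00309). ITGA5 (chromosome 12, 54395261 to 54419460), the fibronectin receptor chain that pairs with ITGB1, had 4.57 and 4.74 FPKM with REEP6 and 3.52 and 3.77 FPKM in NC. The groups did not overlap and the log2 fold change was 0.38 ± 0.112 (SE, edgeR adjusted p 0.036). This call was weak: it was kept in 6 of 14 alternative settings and ended with DESeq2 (DESeq2 adjusted p 0.0799) and without NC replicate 1, REEP6 replicate 1 or REEP6 replicate 2 (edgeR adjusted p 0.111, 0.105 and 0.147). With equal FPKM sums its log2 fold change was 0.25.

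The alpha subunits ITGA9 and ITGAE were measurable, and neither passed. ITGA9, a receptor chain for tenascin and VCAM1, had 2.14 and 2.31 FPKM with REEP6 and 2.95 and 2.14 FPKM in NC. ITGAE, which in lymphocytes binds E-cadherin, had 4.24 and 4.42 FPKM with REEP6 and 4.71 and 5.55 FPKM in NC, with a 95% interval of the log2 fold change from -0.50 to 0.06.

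Because a ratio between subunits of 1 library does not depend on how libraries are scaled, the subunits were also expressed as shares of the summed FPKM. ITGB1 made up 53.0% and 55.1% of beta subunit FPKM in the REEP6 libraries, against 71.7% and 74.0% in the NC libraries. ITGB5 made up 29.6% and 27.6% with REEP6 and 17.7% and 16.1% in NC, and ITGB4 15.7% and 15.1% with REEP6 and 8.63% and 7.73% in NC. Among alpha subunits the 3 laminin-binding chains took 59.2% and 57.7% with REEP6 and 46.0% and 44.5% in NC, while the 4 collagen-binding chains took 4.86% and 5.19% with REEP6 and 9.96% and 10.0% in NC. ITGAV took 27.9% and 28.7% with REEP6 and 38.0% and 39.1% in NC. None of the shares named so far overlapped between the groups. The ITGB8 share did overlap, at 1.52% and 1.89% with REEP6 and 1.62% and 2.05% in NC. How often values of other genes separate in this way was not computed. Summed alpha FPKM was 141 ± 1.57 with REEP6 and 185 ± 5.29 in NC, and summed beta FPKM 119 ± 2.53 with REEP6 and 168 ± 0.737 in NC (SD, n = 2). Shares of 1 total move against each other by construction, so a larger share is not by itself a higher level.

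**Figure D2:**
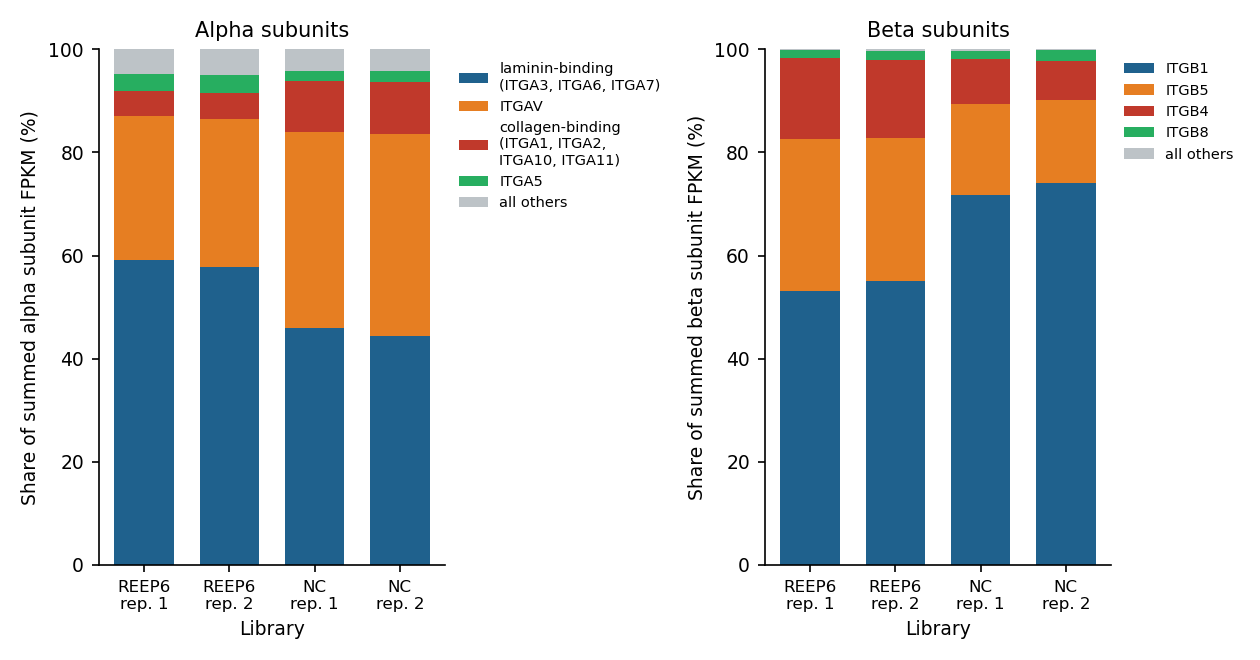
Share of summed FPKM (percent) taken by integrin alpha subunits (left) and beta subunits (right) in each library, with the 2 REEP6 libraries left of the 2 NC libraries. ITGB1 took 53.0% and 55.1% of beta subunit FPKM with REEP6 and 71.7% and 74.0% in NC, and the laminin-binding alpha chains took the larger part of alpha FPKM with REEP6.

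The other 11 integrin subunits stayed below the filter in both groups. ITGA4, ITGAD and ITGAL, chains of leukocyte receptors, had 0 counts in all 4 libraries, which allows up to 3 counts in each, or 0.197 to 0.233 CPM, for counting error only. The leukocyte chains ITGAM, ITGAX and ITGB2 had between 0 and 17 counts in any library, and ITGB6, the epithelial partner of alphaV, had 4 and 5 counts with REEP6 and 2 and 3 in NC. ITGA2B, the platelet fibrinogen receptor chain, had 25 and 23 counts with REEP6 and 14 and 8 in NC, with no call when all genes with a count were tested (log2 fold change 1.23, edgeR adjusted p 0.0787). ITGA8 had at most 1 count. ITGB3 and ITGB7 had between 1 and 13 counts, and other genes overlap 51.6% and 42.1% of their exon length. Another gene on the same strand overlaps 20.6% of ITGB6 exon length.

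Of the 13 adaptors and kinases, 12 were tested, 3 rose and 0 fell, a share called equal to the 25.0% of all genes. The kindlins bind the beta tail beside talin, and the 3 kindlin genes differed. FERMT1 (chromosome 20, 6074845 to 6123544), the kindlin of epithelia, had 4.64 and 4.59 FPKM in the REEP6 libraries, against 2.63 and 2.16 FPKM in the NC libraries. FERMT1 rose 1.97-fold (log2 fold change 0.98 ± 0.153 SE, edgeR adjusted p 0.00233) and stood at 221 from the highest of 13077 genes. FERMT2, the kindlin of mesenchymal cells, was the more abundant per length, at 7.29 and 6.74 FPKM with REEP6 and 7.13 and 7.50 FPKM in NC, with a 95% interval of the log2 fold change from -0.25 to 0.18. FERMT3, the kindlin of blood cells, had 1.77 and 1.299 FPKM with REEP6 and 1.55 and 1.69 FPKM in NC, and its groups overlapped.

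PARVB (chromosome 22, 43999211 to 44172949), a parvin that joins integrin-linked kinase to actin, had 3.37 and 3.82 FPKM with REEP6 and 2.28 and 2.23 FPKM in NC. PARVB rose 1.62-fold (log2 fold change 0.70 ± 0.137 SE, edgeR adjusted p 0.00648). Its paralog PARVA was more abundant per length and did not pass, at 10.1 and 9.72 FPKM with REEP6 and 8.402 and 9.62 FPKM in NC. PXN (chromosome 12, 120210439 to 120265771), which encodes the scaffold paxillin, had 20.4 and 17.8 FPKM with REEP6 and 15.7 and 15.1 FPKM in NC. Its log2 fold change was 0.34 ± 0.0963 (SE, edgeR adjusted p 0.0303), 0.23 when REEP6 replicate 1 was left out (edgeR adjusted p 0.282) and 0.21 at equal FPKM sums (edgeR adjusted p 0.168). An antisense gene and another transcript on the opposite strand overlap 12.4% of PXN exon length, and the strand setting of the counting is not given in the sources used here.

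**Figure D3:**
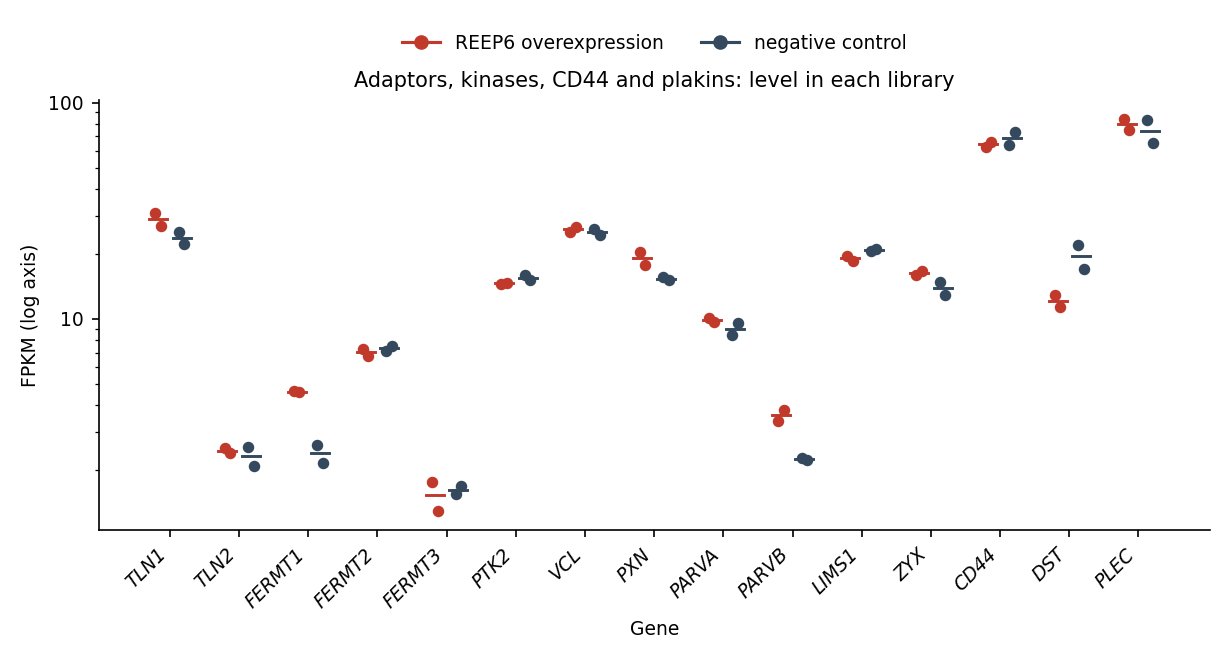
FPKM of the 15 tested adaptors, kinases, plakins and CD44 on a log axis, with 1 point per library, a line at the mean of each group of 2, and REEP6 overexpression left of the negative control. FERMT1 and PARVB were higher and DST was lower in both REEP6 libraries than in both NC libraries, while VCL, CD44 and PLEC overlapped between the groups.

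TLN1, the major talin, had 31.0 and 26.8 FPKM with REEP6 and 25.2 and 22.2 FPKM in NC and lay just beyond the threshold (log2 fold change 0.31, 95% interval 0.08 to 0.54, edgeR adjusted p 0.0517). It passed in 7 of 15 alternative settings, DESeq2 among them (DESeq2 adjusted p 0.0313). ZYX, the LIM protein zyxin of mature adhesions, had 16.0 and 16.8 FPKM with REEP6 and 14.9 and 12.97 FPKM in NC and did not pass (edgeR adjusted p 0.086). The core genes VCL (vinculin), PTK2 (focal adhesion kinase) and LIMS1 (PINCH) were well expressed, at 14.6 to 26.7 FPKM with REEP6 and 15.1 to 26.1 FPKM in NC. None of them passed, and their 95% intervals lay between -0.30 and 0.25 on the log2 scale, which leaves out changes of the size seen for ITGB1. LIMS1 has near-identical paralogs that can share reads, and AP3M1 on the opposite strand overlaps 11.1% of VCL exon length. TLN2, the second talin, had 2.53 and 2.39 FPKM with REEP6 and 2.56 and 2.09 FPKM in NC. ILK, the integrin-linked pseudokinase, had 14 and 5 counts with REEP6 and 17 and 15 in NC. Genes on the opposite strand, TAF10 among them, overlap 78.5% of its exon length, so its level is uncertain.

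The plakins and CD44 were abundant. DST (chromosome 6, 56457987 to 56954628), which encodes dystonin, a linker of cytoskeletal filaments whose epithelial form anchors keratin at hemidesmosomes, had 12.9 and 11.3 FPKM with REEP6 and 21.9 and 17.1 FPKM in NC. DST fell 1.58-fold (log2 fold change -0.66 ± 0.123 SE, edgeR adjusted p 0.00535), and its isoforms were not separated. PLEC, the plectin gene, had 83.7 and 75.1 FPKM with REEP6 and 83.3 and 64.9 FPKM in NC. CD44, the hyaluronan receptor, had 62.5 and 65.6 FPKM with REEP6 and 63.7 and 73.2 FPKM in NC. Both overlapped between the groups, with 95% intervals of the log2 fold change from -0.14 to 0.40 for PLEC and from -0.28 to 0.14 for CD44.

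**Figure D4:**
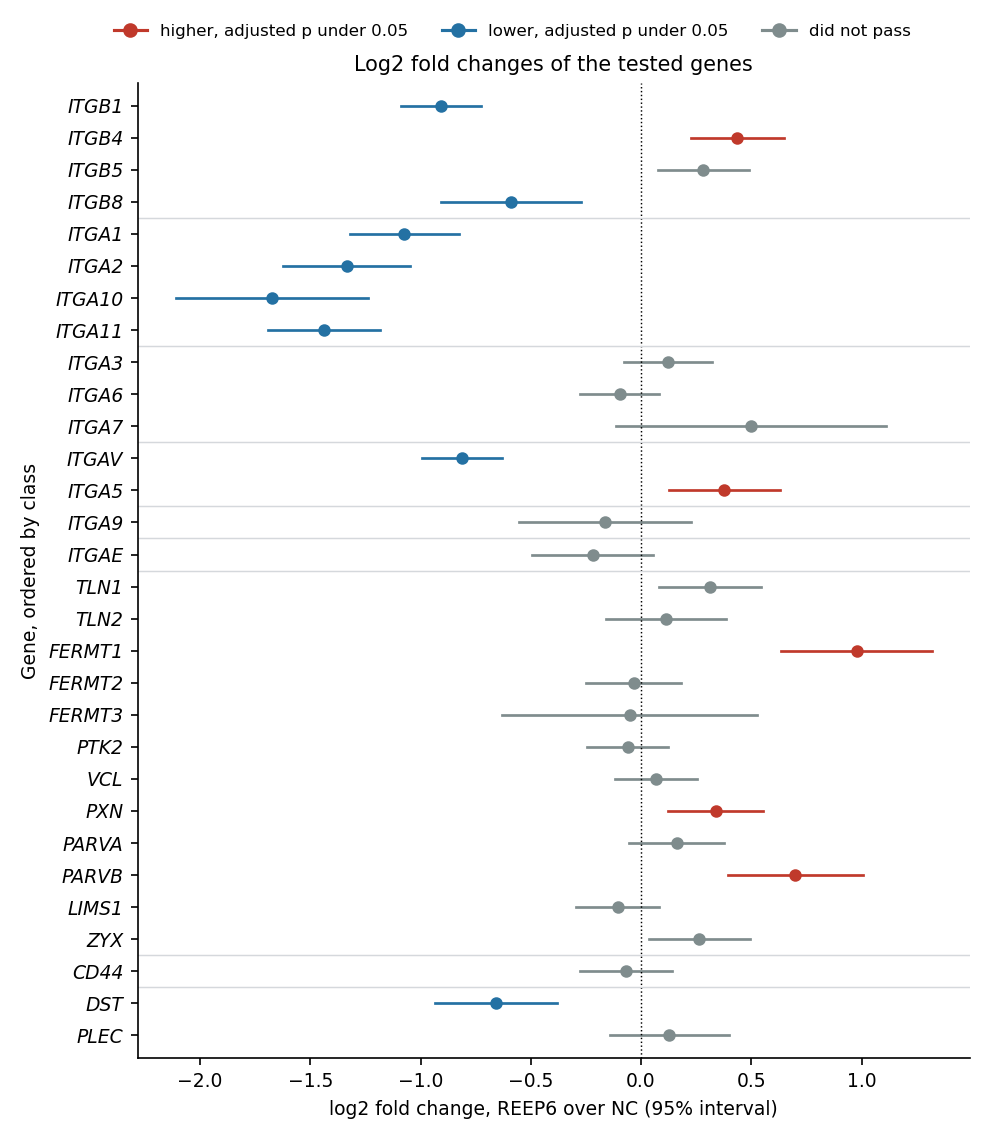
Log2 fold change (REEP6 over NC) of the 30 tested genes, ordered by class with grey lines between classes, with 95% intervals from edgeR's quasi-likelihood fit on 2 libraries per group. Points left of 0 were lower with REEP6: ITGA10, ITGA11, ITGA2 and ITGA1 lay farthest left at -1.67 to -1.07, and FERMT1 farthest right at 0.98.

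GC content differed between the calls, with overlapping ranges. The 8 genes that fell had a median transcript GC content of 41.3% (37.8% to 52.9%) and the 5 that rose 56.2% (47.6% to 62.9%). The 17 tested genes without a call had a median of 51.1%, and their range of 39.6% to 66.6% covered most of both. With a GC correction, chosen after seeing the data, ITGB1 (log2 fold change -0.69), ITGAV, the 4 collagen-binding subunits and DST still passed as lower and ITGB4, FERMT1 and PARVB as higher, whereas ITGB8, ITGA5 and PXN did not. The part of GC content in these results was not tested further. Scaling mattered for the smaller rises. With FPKM sums made equal the median over all genes was -0.14 on the log2 scale, the share of higher genes among all called genes was 19.0% in place of 43.4%, and 2 of the tested genes were higher in place of 5, while 8 were lower as before.

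**Figure D5:**
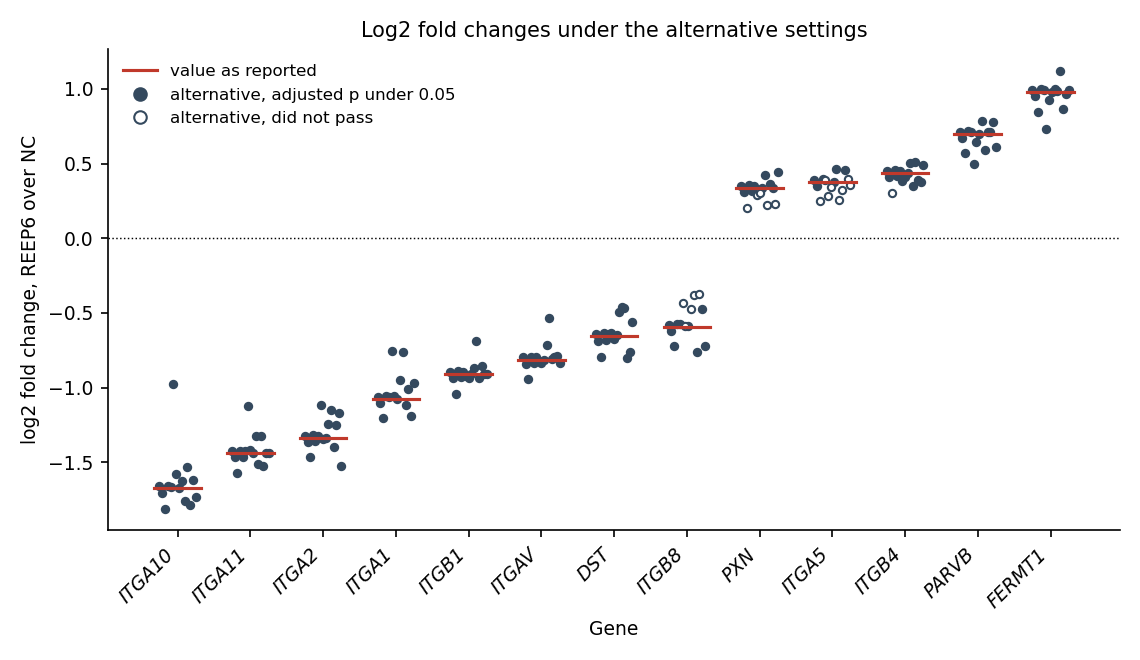
Log2 fold change (REEP6 over NC) of the 13 called genes as reported (red line) and under each alternative setting (points, open where the adjusted p did not pass 0.05). ITGB8, ITGA5, PXN and ITGB4 each have open points, the other 9 have none, and no gene changed sign.

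The ligands of these receptors were read from a list of 35 genes, of which 18 were tested, 5 fell and 3 rose (44.4% called, beside 25.0% of all genes; median log2 fold change -0.23). LAMA4, a laminin alpha chain of mesenchymal basement membranes, had 8.06 and 7.93 FPKM with REEP6 and 19.4 and 18.4 FPKM in NC, a 2.32-fold fall. Thrombospondin 1 (THBS1), a ligand of beta1 and alphaV integrins and of CD47, fell 1.86-fold, at 16.1 and 16.1 FPKM with REEP6 and 31.7 and 29.5 FPKM in NC. LTBP1, which tethers latent TGF-beta in the matrix, fell 2.59-fold, at 0.979 and 1.05 FPKM with REEP6 and 2.73 and 2.62 FPKM in NC. POSTN, an alphaV integrin ligand, fell 4.29-fold. POSTN passed the filter only through the NC libraries and is also a fibroblast marker. LTBP1 also needed the NC libraries to pass, because REEP6 replicate 1 lay below 1 FPKM. Both genes are among the 5 that fell. On the log2(FPKM + 1) scale the log2 fold changes were -0.94 for POSTN and -0.87 for LTBP1, against -2.10 and -1.37 in the count fit.

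TNC, the tenascin gene, rose 1.34-fold and TGFB1, whose latent form is bound by alphaV integrins, 1.44-fold. TNC had 24.6 and 22.9 FPKM with REEP6 and 19.3 and 16.9 FPKM in NC, and TGFB1 had 54.1 and 63.8 FPKM with REEP6 and 37.0 and 46.2 FPKM in NC. Leaving out REEP6 replicate 1 ended the TNC call (edgeR adjusted p 0.0576) and left 1 of the listed ligands higher, and the call also ended with equal FPKM sums (0.28, edgeR adjusted p 0.0752). The TGFB1 call ended with the GC correction (0.43, edgeR adjusted p 0.053). On the log2(FPKM + 1) scale neither TNC nor TGFB1 passed (limma adjusted p 0.0601 and 0.0744).

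Other integrin signalling genes, 41 tested of 50 listed, had 12 higher and 6 lower (43.9% called, median log2 fold change 0.10), beside 10.9% higher and 14.2% lower of all genes. The higher SRC and the lower GIT2, singled out after their values were seen, passed the filter only through the group in which each was higher, SRC at 1.34 and 1.70 FPKM with REEP6 and 0.89 and 0.722 FPKM in NC and GIT2 at 0.909 and 0.955 FPKM with REEP6 and 1.43 and 1.29 FPKM in NC. ACTN4, the actin crosslinker alpha-actinin-4, had 176 and 153 FPKM with REEP6 and 117 and 111 FPKM in NC, a 1.47-fold rise (edgeR adjusted p 0.00354). TNS3, a tensin that binds beta tails, rose 1.38-fold, SORBS3, the vinculin-binding vinexin, 1.55-fold, and GIT1, a paxillin-binding scaffold, 1.397-fold. RAP1B, a small GTPase that promotes integrin activation, had 11.6 and 12.4 FPKM with REEP6 and 18.5 and 19.0 FPKM in NC and fell 1.53-fold (edgeR adjusted p 0.00126). ARHGEF6, an exchange factor for Rac that binds parvins, fell 2.05-fold. The calls of ACTN4, TNS3, SORBS3, GIT1, RAP1B and ARHGEF6 were kept under every alternative setting that gave a value, but the 6 lower genes became 2 without REEP6 replicate 1 and 3 without REEP6 replicate 2, and with equal FPKM sums 6 were higher and 8 lower.

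A list of CD44 and hyaluronan partners, called CD44 partners below for short, also held hyaluronan synthases and hyaluronidases. Of its 13 genes, 7 were tested, 2 fell and 1 rose (3 of 7, or 42.9%, beside 25.0% of all genes). RDX, the radixin linker between CD44 and actin, fell 1.41-fold, at 17.2 and 18.2 FPKM with REEP6 and 24.8 and 26.0 FPKM in NC, and its log2 fold change of -0.49 was -0.29 with the GC correction (edgeR adjusted p 0.0333). VCAN, a hyaluronan-binding proteoglycan, fell 1.32-fold, a call that ended when REEP6 replicate 2 was left out (edgeR adjusted p 0.103), with the GC correction (-0.27, edgeR adjusted p 0.0732) and in both limma settings (limma adjusted p 0.0501 and 0.0518). MSN, the related linker moesin, had 44.7 and 43.9 FPKM with REEP6 and 37.6 and 37.1 FPKM in NC and rose 1.21-fold (edgeR adjusted p 0.0342). The MSN call ended whichever of the 4 libraries was left out, at edgeR adjusted p values of 0.0638 to 0.203.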

How the data were processed

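For 51103 Ensembl genes the authors deposited 1 raw count and 1 FPKM per library (4 libraries), per the file headers. HISAT2 and HTSeq 0.13.5 on GRCh38 are named, without roles, in the submitters' processing notes. No source used here gives the annotation, strand setting or handling of shared reads. FPKM, count and library total together implied 1 length per gene for 100% of 29161 genes (relative tolerance 0.0001). Coordinates are from GENCODE release 29, and upstream sequences from RefSeq (GRCh38.p14), which had an entry for 29 of the 42 genes. The genes whose upstream windows are printed were chosen after their values were seen.

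Genes with at least 1 FPKM in at least 2 libraries were tested. The main test was edgeR's quasi-likelihood test (edgeR 4.0.16, R 4.3.3) on TMM-scaled counts, two-sided, with 2 residual degrees of freedom. To these the fit added prior degrees of freedom estimated across all tested genes. P-values and intervals therefore draw on the spread of other genes and are narrower than 2 degrees of freedom alone would give. Benjamini-Hochberg adjustment ran over all 13077 genes, at a threshold of 0.05. The standard error is the log2 fold change over the square root of F, and intervals are 95%. Replicates of a group differed by more than counting noise (chi-square per degree of freedom 5.68 for REEP6 and 9.58 for NC), so each was counted.

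The genes, context lists and tests were chosen with earlier results of these data known. All member genes are named, and in the context lists at most 6 called genes with the smallest p. Alternatives were other scalings, filters and tests (DESeq2 1.42.0, limma 3.58.1), a replicate block, length and GC corrections, and leaving out each library.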

Additional observations from a re-analysis of the deposited data

How the results depend on the processing

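Log2 fold changes were followed for REEP6, the 30 tested adhesion genes and at most 6 called genes of each context list. Across 15 alternative settings no called gene among these changed direction. Of their 676 gene-by-setting values, 603 kept their direction and their side of the threshold. The GC correction was chosen after seeing the data. With equal FPKM sums 661 genes were higher and 2824 lower, 2 adhesion genes were higher, 1 ligand was higher and 8 lower, 6 signalling genes were higher and 0 CD44 partners were higher. At a minimum of 5 FPKM, where fewer genes are tested, 936 genes were higher, and 2 adhesion genes were higher and 5 lower. With no filter 9 ligands were lower, and with library totals 0 CD44 partners were higher. With limma on log2(FPKM + 1) 634 genes were higher, with 3 adhesion genes, 0 ligands, 5 signalling genes and 0 CD44 partners higher and 1 CD44 partner lower. With a pseudocount of 0.1 the genes were 597 higher and 1233 lower, and the list counts were the same. With the GC correction 1140 genes were lower, 3 adhesion genes were higher, 1 ligand was higher and 8 lower, and 1 CD44 partner was lower. The cause of these shifts was not tested.

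The labels share replicate numbers but do not tie them to a batch. Deviations of same-numbered libraries had a correlation of 0.27 across genes. With a replicate block 2960 genes were higher and 3062 lower, 9 adhesion genes were higher and 8 ligands lower. The block added ITGB5 (edgeR adjusted p 1.09e-05), TLN1 (6.6e-07), ZYX (0.00429) and PARVA (0.0265) to the higher adhesion genes.

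Leaving out 1 library at a time gave 940 to 1495 genes higher and 1272 to 1718 lower, 3 to 7 adhesion genes higher and 7 to 8 lower, 1 to 2 ligands higher and 4 to 6 lower, 8 to 13 signalling genes higher and 2 to 6 lower, and 0 CD44 partners higher and 1 to 2 lower. A fit that leaves a group with 1 library assumes that it varies like the other group.

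Log2 fold changes that changed sign all belonged to genes without a call. With equal FPKM sums they were -0.014 for ITGA3, -0.021 for TLN2, -0.065 for VCL and -0.0090 for PLEC. With the GC correction they were 0.052 for ITGA6, 0.23 for FERMT2 and 0.0065 for PTK2. With the length correction they were 0.066 for FERMT2, 0.056 for PTK2 and 0.043 for CD44. Leaving out 1 library at a time gave -0.36 to 0.080 for ITGA9, -0.0035 to 0.26 for TLN2, -0.099 to 0.031 for FERMT2, -0.30 to 0.16 for FERMT3, -0.17 to 0.063 for CD44 and -0.014 to 0.32 for PLEC. The 12 untested genes had at most 25 counts in any library.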
